A study of Homo sapiens with 3 samples.

Results

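The very high tag8 cells were the irradiated HCT116 cells that carried the most antibody hashtag in a pooled droplet library. HCT116 is a human colorectal cancer line with working p53 (genotype p53plus in the labels). The irradiated preparation, given 8 Gy, pooled giant cells that had been isolated on day 5 or day 8 and kept in culture until day 10 or day 11, and it was stained with the hashtag tag8. Cells that had never been irradiated (0 Gy) carried tag6 and cells that had regrown after irradiation carried tag7. About 10000 irradiated, 1000 non-irradiated and 1000 repopulated cells were loaded together as the library Mix2, so the sub-preparations of the irradiated cells shared 1 tag and could not be separated. A cell was taken as very high when at least 200 genes were detected, under 10% of its unique molecular identifiers (UMIs) came from mitochondrially encoded genes, tag8 made up at least 80% of its 3 tag counts, and tag8 reached 10000 counts or more. This left 844 very high cells, out of 9605 tag8 cells, 11652 Mix2 cells and 13888 Mix2 barcodes (30907 barcodes in the whole series). They were set against 1372 tag8 cells with 3160 to under 10000 tag8 counts, called the comparison band here. Of the non-irradiated cells, 817 passed the same limits with tag6 and served as background. The study's own filters kept fewer Mix2 cells, so this is a larger set of cells than the one it described.

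A hashtag is an antibody that carries a short DNA barcode and binds proteins found on nearly every cell, so that its count gives the amount of antibody caught in a droplet along with the cell's RNA. Giant cells that survive the dose are called radiation-tolerant persister (RTP) cells in the study; they stop dividing, and some later bud off small progeny. Arrest after DNA damage is driven by p53, whose target CDKN1A blocks the cyclin-dependent kinases. A droplet profile holds several classes of RNA with different homes in the cell: mitochondrial transcripts lie inside the organelle, MALAT1 and NEAT1 are long noncoding RNAs kept in the nucleus, and messenger RNAs such as that of FTH1, the heavy chain of the iron store ferritin, lie mostly in the cytoplasm.

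The 844 very high cells held 9731261 gene UMIs and the comparison band 17396284, and the whole Mix2 library held 107393576. The median tag8 count was 17875 in very high cells and 5118.5 in the comparison band, and the highest was 119654. The 3 very high cells nearest the limit had 10046, 10065 and 10081 tag8 counts, and the 3 comparison cells nearest it had 9988, 9982 and 9958, so the boundary cut a continuous range. Of the very high cells, 190 had 30000 tag8 counts or more (1715941 UMIs) and 654 had from 10000 to under 30000 (8015320 UMIs). Mix1, the other droplet library, shared 59 cell barcodes with Mix2, of which 2 were very high cells (0.237%) and 10 lay in the comparison band (0.729%). All groups came from 1 library, so cells are not replicates, no test was made, and the 95% intervals below (exact conditional binomial for ratios, Clopper-Pearson for shares, order statistics for medians) cover counting error or the sampling of cells only.

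The label held in that all 3 marker genes of irradiated cells were high. CST3, which encodes the secreted protease inhibitor cystatin C, stood at 936 CPM (UMIs summed over cells and scaled to a common total) in very high cells, against 240 CPM in non-irradiated cells. CDKN1A stood at 1085 CPM in very high cells and 181 CPM in non-irradiated cells. SNCG, gamma-synuclein, stood at 187 CPM in very high cells and 79.3 CPM in non-irradiated cells. Markers of other cell types were at or near 0: the summed fibroblast, immune, endothelial and erythroid markers reached 2.77, 0.617, 0.514 and 1.44 CPM in very high cells, against 3.68, 0.517, 0.115 and 1.61 CPM in the comparison band, and none of the 4 lists had a member at 10 CPM.

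The 3 markers were also above the comparison band, but by little. CST3 was 936 CPM in very high cells and 627 CPM in the comparison band, a ratio of 1.49 (1.45 to 1.54). CDKN1A was 1085 CPM in very high cells and 824 CPM in the comparison band, a ratio of 1.32 (1.28 to 1.35), and SNCG was 187 against 152 CPM, a ratio of 1.23. None of the 3 reached the 1.5-fold limit used here to call a gene. CST3 lies at chr20:23626706-23638473, CDKN1A at chr6:36676460-36687337 and SNCG at chr10:86958599-86963258 (GRCh38, GENCODE annotation).

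Against the comparison band the very high cells were low in mitochondrial and nuclear-retained RNA. The median cell had 3.49% of its UMIs from mitochondrially encoded genes in the very high group (3.19 to 3.78), against 6.50% in the comparison band (6.37 to 6.63). At 30000 tag8 counts or more the median was 0.56%. Of the very high cells, 31.8% (28.6 to 35.0) had a mitochondrial share under 2%, against 1.53% (0.950 to 2.33) of the comparison band and 0.367% of non-irradiated cells. Such low shares were also common at the bottom of the tag8 range, in 45.7% of 562 tag8 cells under 300 tag8 counts and 21.5% of 2340 cells from 300 to under 1000, whose median depths were 700.5 and 5275 UMIs per cell, so the low share was not particular to very high cells. What depth contributes to those shares was not tested. The spread inside the very high group was wide, with quartiles of 1.36% and 5.48%.

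Nuclear-retained long noncoding RNAs were low as well, with 3 of 4 measured members lower and 0 higher. The median very high cell had 1476 CPM of MALAT1, against 8426 CPM in the comparison band and 13290 CPM in non-irradiated cells. In summed UMIs MALAT1 (chr11:65497640-65508073) stood at 3912 CPM in very high cells and 11939 CPM in the comparison band, a ratio of 0.328 (0.324 to 0.331). MALAT1 was under 3000 CPM in 73.3% of very high cells (70.2 to 76.3), against 22.7% of the comparison band (20.5 to 25.1) and 1.47% of non-irradiated cells. NEAT1, the scaffold of nuclear paraspeckles, fell to 371 CPM in very high cells, against 626 CPM in the comparison band (ratio 0.593), and KCNQ1OT1, a nuclear antisense RNA of an imprinted region, fell to 9.04 CPM against 17.4 CPM (ratio 0.519). NORAD, a long noncoding RNA that binds Pumilio proteins and acts mainly in the cytoplasm, was 103 CPM in very high cells and 117 CPM in the comparison band (ratio 0.882) and did not reach the limit. Of all genes kept 12.4% were lower by as much.

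**Figure D1:**
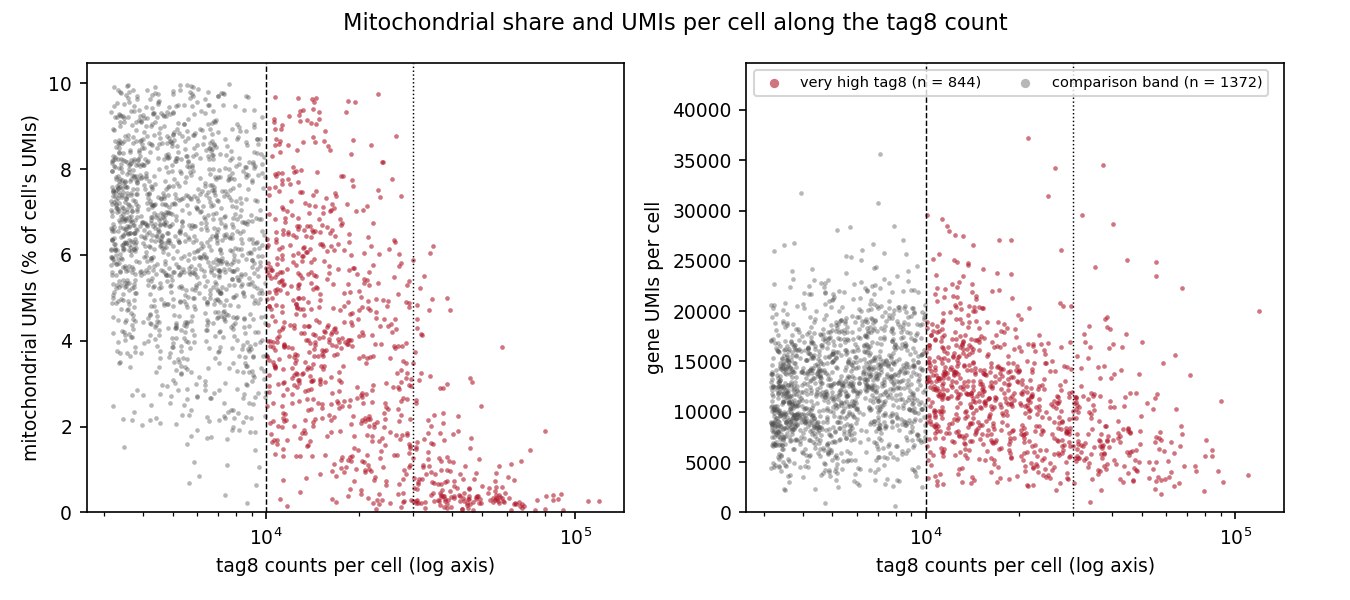
Mitochondrial share (left, percent of the cell's UMIs) and gene UMIs per cell (right) against tag8 counts on a log axis, each point 1 cell, red for the 844 very high cells and grey for the 1372 cells of the comparison band. Dashed and dotted lines mark 10000 and 30000 tag8 counts; right of the dotted line most cells lie near 0 on the left panel (median 0.56%).

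Both low values often met in the same cell. A mitochondrial share under 2% together with MALAT1 under 3000 CPM was seen in 245 of 844 very high cells (29.0%, 26.0 to 32.2), against 11 of 1372 in the comparison band (0.802%, 0.401 to 1.43) and 1 of 817 non-irradiated cells. It was also seen in 14.1% of tag8 cells under 300 tag8 counts, 3.63% of those from 300 to under 1000 and 0.557% of those from 1000 to under 3160. A further 374 very high cells (44.3%) had only MALAT1 low, against 301 comparison cells (21.9%), while 23 very high cells and 10 comparison cells had only the mitochondrial share low. Neither was low in 202 very high cells (23.9%), against 1050 comparison cells (76.5%). The 2% and 3000 CPM limits cut continuous ranges, so these are classes of range and not cell types. Of the 190 cells with 30000 tag8 counts or more, 150 were low in both.

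**Figure D2:**
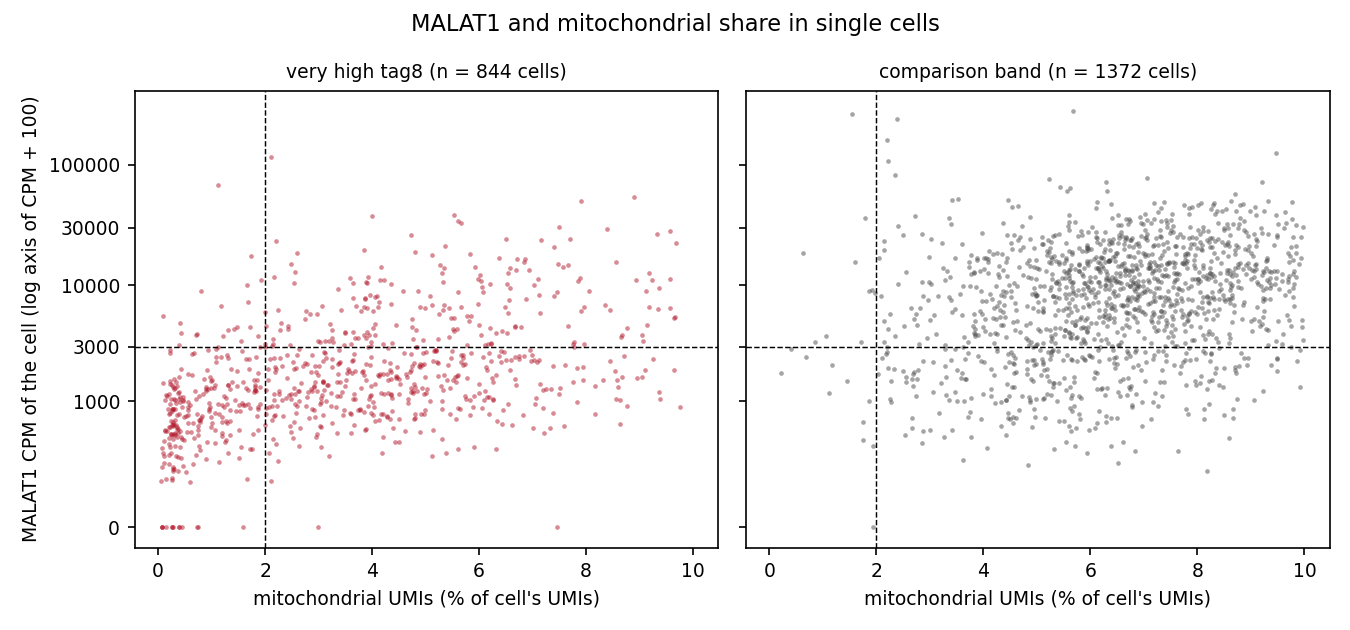
MALAT1 level of single cells (CPM, log axis of CPM + 100) against the mitochondrial share (percent of UMIs), in very high cells (left, n = 844) and the comparison band (right, n = 1372), with dashed lines at 3000 CPM and 2%. The lower left corner holds 245 very high cells and 11 comparison cells.

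Within the very high cells the classes differed in other genes too, as a description of cells that were split by MALAT1 and mitochondrial RNA. The 245 cells low in both had 1249 CPM of CST3 and 36861 CPM of FTH1, while the 202 cells low in neither had 765 CPM of CST3 and 20617 CPM of FTH1. CDKN1A was nearly level, with 1172 CPM in the cells low in both, 1057 CPM in those with only MALAT1 low and 1066 CPM in those low in neither. MKI67, a nuclear marker of cycling cells, was 26.9 CPM in cells low in both and 88.5 CPM in cells low in neither. LCN2, the iron-scavenging protein lipocalin 2, was 121 CPM in cells low in both and 163 CPM in cells low in neither. A single cell of the latter class held 124 LCN2 UMIs, so these LCN2 values cannot be read as a difference between the classes. The cells low in both also carried more tag8 (median 34870 counts, against 13834.5 in those low in neither) and fewer UMIs (median 7423, against 14104), and the part that depth plays in their levels was not tested.

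Very high cells were no larger in RNA content than the comparison band. The median was 11080.5 UMIs per cell (10612 to 11460), against 12472 in the comparison band (12080 to 12692) and 7151 in non-irradiated cells, and the 190 cells with most tag8 had a median of 7298.5. Genes per cell had a median of 2830 in very high cells and 3238.5 in the comparison band. After each cell was thinned to 3000 UMIs the medians were 1223.5 genes in very high cells and 1339 in the comparison band, and 1378.5 in non-irradiated cells, with 18 very high, 11 comparison and 13 non-irradiated cells too shallow to be thinned. Against tag8 cells with 1000 to under 3160 tag8 counts the order turned round, with 1.41 times the median UMIs and 1.11 times the median genes in very high cells. Ribosomal protein transcripts made up 30.0% of the UMIs of the median very high cell and 24.7% in the comparison band.

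The 10% mitochondrial limit removed fewer very high cells than comparison cells, and the difference between groups was larger without it. It removed 59 of 903 very high barcodes (6.53%, 5.01 to 8.35), against 447 of 1819 in the comparison band (24.6%, 22.6 to 26.6), and 0 of the 190 barcodes with 30000 tag8 counts or more (Clopper-Pearson upper limit 1.92%). With no mitochondrial limit the median mitochondrial share of very high cells minus that of the comparison band was -3.54 percentage points, against -3.01 points with it.

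Along the tag8 count the very high cells extended a course that had begun in the comparison band. Over 7 bands of tag8 counts, the first starting at 10000 and the last at 60000, the median mitochondrial share ran from 4.94% to 0.274%, summed MALAT1 from 6232 to 540 CPM, FTH1 from 20648 to 36579 CPM and CST3 from 793 to 1438 CPM. Spearman's rho of tag8 with the mitochondrial share was -0.59 over 844 very high cells and -0.20 over 1372 comparison cells, and with MALAT1 it was -0.45 and -0.31. Of tag8 with UMIs it was -0.36 in very high cells and 0.17 in the comparison band. These are descriptions of cells that share 1 library, and tag8 and UMIs were counted in the same droplets.

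**Figure D3:**
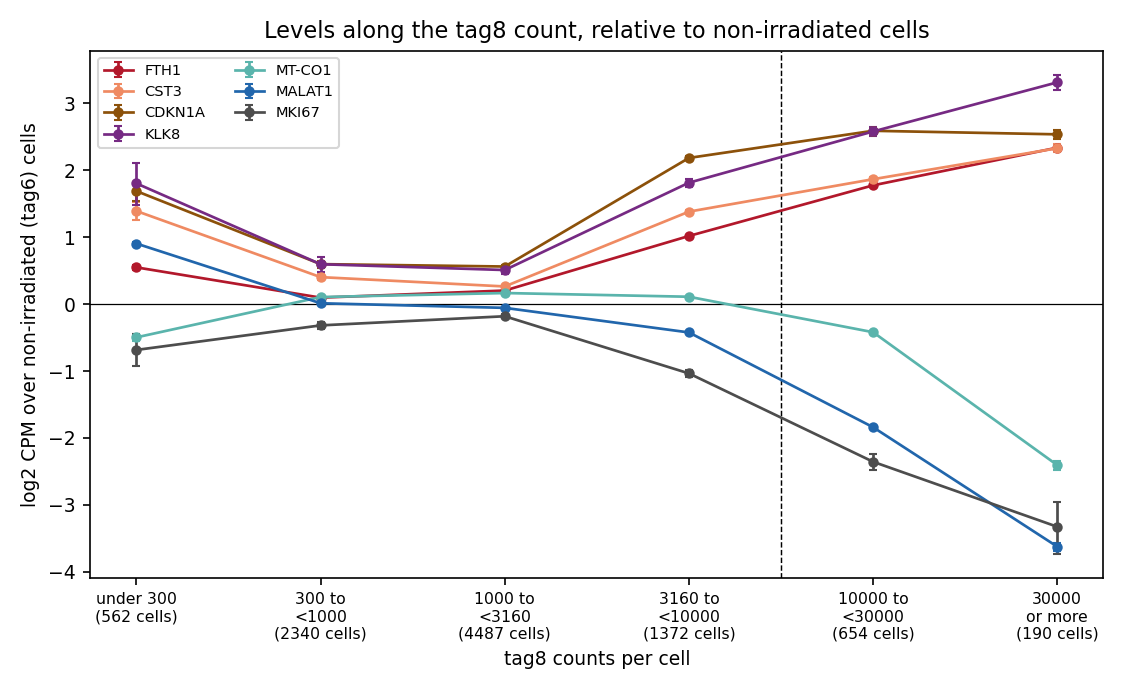
Levels of 7 genes along 6 bands of tag8 counts, as log2 CPM over non-irradiated cells, with 95% counting intervals; the dashed line separates the 2 very high bands (654 and 190 cells) from the lower bands. FTH1 and KLK8 reach their highest level, and MALAT1, MT-CO1 and MKI67 their lowest, at 30000 counts or more.

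CDKN1A and MALAT1 behaved differently on that course. CDKN1A was 268 CPM at 1000 to under 3160 tag8 counts, 824 CPM in the comparison band, 1092 CPM at 10000 to under 30000 and 1052 CPM above that. MALAT1 was 15403, 11939, 4472 and 1298 CPM over the same 4 bands. FTH1 was 8324, 14650, 24757 and 36567 CPM. CDKN1A thus differed most below the very high limit, whereas MALAT1 and FTH1 went on changing above it. Cells under 300 tag8 counts did not lie at the low end of this course: their CDKN1A was 585 CPM and their MALAT1 29979 CPM.

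Across all genes, 7184 had a mean of at least 10 CPM over both groups and were kept. Of these, 80 were higher by 1.5-fold or more in very high cells (1.11% of genes) and 888 were lower by as much (12.4%), and the median log2 ratio of all genes was -0.18. Scaling by TMM factors, which set aside the most extreme genes, raised every log2 ratio by 0.16 and gave 246 higher and 378 lower genes, so that 39.4% of calls were higher in place of 8.26%. The excess of lower genes therefore depended on the scaling, and each list below is read against the -0.18 of all genes. In the cells from 10000 to under 30000 tag8 counts, 62 of 7236 genes were higher (0.857%) and 569 lower (7.86%), with a median of -0.13. In the 190 cells with most tag8, 359 of 6853 genes were higher (5.24%) and 2884 lower (42.1%), with a median of -0.47.

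**Figure D4:**
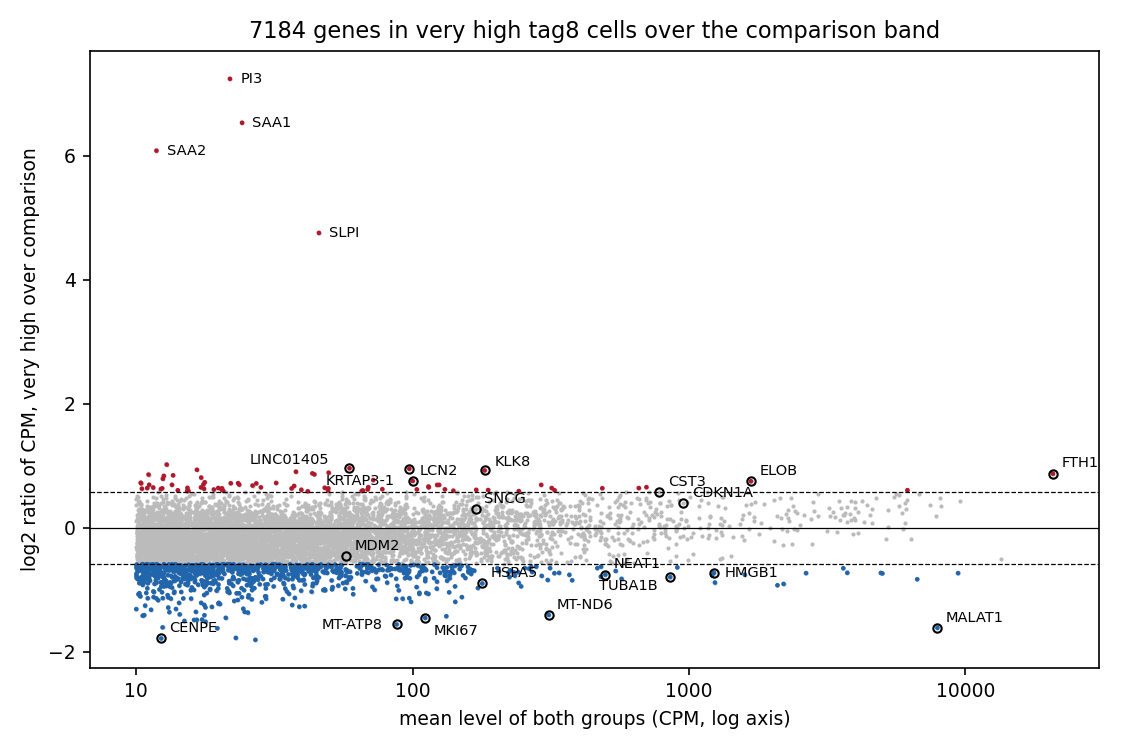
Log2 ratio of CPM, very high cells over the comparison band, against the mean level of both groups (CPM, log axis) for 7184 genes; red and blue points are past 1.5-fold (dashed lines), and named genes are circled. FTH1 is the most abundant gene among the higher ones and MALAT1 among those more than 2-fold lower. SLPI, SAA1, PI3 and SAA2 stand apart and rest mostly on 1 cell.

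Ferritin heavy chain was the largest gain in absolute amount. FTH1 (chr11:61959718-61967634) was 26839 CPM in very high cells and 14650 CPM in the comparison band, a ratio of 1.83 (1.82 to 1.84), and it was 7231 CPM in non-irradiated cells. Counts of FTH1 may include reads of its processed copies elsewhere in the genome. FTL, the light chain, was 5708 CPM at 10000 to under 30000 tag8 counts and 6199 CPM above that, against 4743 CPM in the comparison band. The other genes of the NRF2 and ferritin list, which answer oxidative stress, did not follow: only FTH1 itself of 10 measured genes was higher and 0 were lower, with a median log2 ratio of -0.16. GCLM, a subunit of the enzyme that starts glutathione synthesis, was 40.6 CPM in very high cells and 55.9 CPM in the comparison band, and TXNRD1, thioredoxin reductase, was 180 against 238 CPM.

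The list of keratin-associated proteins, kallikreins and CPA4, which also held the lipocalin LCN2, had the most higher genes of any list. In it 6 of 10 measured genes were higher, LCN2 among them, and 0 lower. Its median log2 ratio was 0.61, beside 1.11% higher over all genes. KLK8, a secreted serine protease (chr19:50996007-51002711), was 239 CPM in very high cells and 126 CPM in the comparison band, a ratio of 1.90 (1.79 to 2.01), and 2.83 at 30000 tag8 counts or more. KLK5, which activates other kallikreins in skin, was 90.8 against 53.2 CPM (ratio 1.71). LCN2 (chr9:128149071-128153453) was 128 CPM in very high cells and 66.3 CPM in the comparison band, a ratio of 1.94 (1.79 to 2.10). KLK6 and KLK7 were close to even, with ratios of 1.03 and 1.06. The list median was 0.67 at 10000 to under 30000 tag8 counts and 0.35 at 30000 or more. The medians of all genes there were -0.13 and -0.47. In the top band 3 of 10 genes were higher, beside 5.24% of all genes. KLK5 and KRTAP3-1 went from 92.2 and 131 CPM in the lower of these bands to 84.5 and 99.7 CPM. LCN2 was 129 CPM in the lower band and 125 CPM in the upper. A single cell of the lower band gave 124 of its 1035 LCN2 UMIs, so no direction is read for LCN2 between these bands. In cells without a UMI of MKI67 or TOP2A the list median was 0.22.

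Some of these genes were carried by few cells. KRTAP3-1, a hair keratin-associated protein, was 126 CPM in very high cells and 74.4 CPM in the comparison band (ratio 1.69), but 1 comparison cell gave 11.9% of that band's UMIs, and with only cells under 5% mitochondrial UMIs its ratio was 0.886. In LCN2, 1 very high cell gave 124 of 1249 UMIs, and without the highest cell of each group the ratio was 1.80. KLK8 was seen in 696 of 844 very high cells. At 3000 UMIs per cell, KLK8 had a UMI in 47.0% of very high cells (43.5 to 50.4), against 28.5% of the comparison band (26.1 to 31.0) and 9.95% of non-irradiated cells, and without thinning in 83.1%, 65.2% and 22.9% at median depths of 11080.5, 12472 and 7151 UMIs.

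The largest ratios of all, chosen after their values were seen, rested mostly on 1 cell. SLPI and PI3, inhibitors of neutrophil elastase, and SAA1 and SAA2, acute-phase serum amyloid proteins with near-identical sequences, had 860, 422, 465 and 227 UMIs in very high cells, against 57, 5, 9 and 6 UMIs in the comparison band. A single very high cell held 817 of the SLPI UMIs, 417 of those of PI3, 433 of those of SAA1 and 213 of those of SAA2, as well as the 124 UMIs of LCN2. That cell had 14597 UMIs, 12658 tag8 counts and a mitochondrial share of 9.65%. Without the highest cell of each group for each gene, 75 of the 80 higher genes and 874 of the 888 lower genes still met the fold and level limits. SLPI, PI3, SAA1 and SAA2 then had ratios of 1.51, 2.23, 8.17 and 6.26. They were lost because the remaining UMIs fell under the level limit, not the fold limit.

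The other genes with the highest ratios were mostly small or little-studied. LINC01405, a long noncoding RNA (chr12:110934590-110959093), was 78.1 CPM in very high cells and 40.1 CPM in the comparison band, a ratio of 1.95 (1.75 to 2.16). ELOB, elongin B, a partner of the elongation factor elongin and of cullin ubiquitin ligases, was 2103 CPM in very high cells and 1249 CPM in the comparison band (ratio 1.68), and 2.35 times the comparison band at 30000 tag8 counts or more. LIPE-AS1, NENF, MINCR, FAM45A, C4orf48, TMEM219, FXYD1 and COMMD6 had ratios from 1.56 to 1.62. LIPE-AS1 is antisense to another gene, and whether counting used the strand is not given in the sources used here.

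Genes of the 2 panels that the study assembled for its persister cells had medians above 0. The study drew the panels from other cells, picked singly under a microscope and not part of Mix2. The lists used here are shorter than its panels. These lists held 5 and 27 genes. In the maintenance panel 0 of 4 measured genes were past the limit in either direction, with a median log2 ratio of 0.50. In the budding panel 3 of 26 were higher and 0 lower, with a median of 0.25, beside 1.11% higher over all genes. In cells without a UMI of MKI67 or TOP2A the medians fell to 0.17 in the maintenance panel and 0.065 in the budding panel. The 3 higher budding genes were MINCR, ASS1, the enzyme that makes argininosuccinate (227 CPM in very high cells, 149 CPM in the comparison band), and C9orf16 (592 against 380 CPM). RPS12, a ribosomal protein of the maintenance panel, was 8098 CPM in very high cells and 5543 CPM in the comparison band (ratio 1.46).

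Among the lists, those of cycling cells held the most lower genes. Of the measured genes of G2 and M phases 44 of 48 were lower and 0 higher, with a median log2 ratio of -1.04, and of S phase 29 of 35 were lower and 0 higher, with a median of -0.76, beside 12.4% lower over all genes. MKI67 fell to 59.5 CPM in very high cells, against 163 CPM in the comparison band and 333 CPM in non-irradiated cells (ratio to the comparison band 0.366, 0.334 to 0.400). CENPF, a kinetochore protein, fell to 71.9 CPM against 193 CPM, TOP2A, the topoisomerase that untangles chromosomes, to 86.9 against 198 CPM, and CDK1, the kinase that starts mitosis, to 60.9 against 134 CPM. CENPE, a kinetochore motor, had the lowest ratio named here, 0.291 (5.55 CPM in very high cells, 19.1 CPM in the comparison band). In homologous recombination, the repair of breaks from the sister copy, 6 of 8 genes were lower and 0 higher (median -0.88, beside the same 12.4%), among them BRCA1 at 11.9 CPM in very high cells and 27.8 CPM in the comparison band.

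Fewer very high cells held a mitotic transcript. At 3000 UMIs per cell, MKI67 or TOP2A had a UMI in 29.4% of very high cells (26.3 to 32.7), against 44.1% of the comparison band (41.4 to 46.8) and 78.1% of non-irradiated cells. Without thinning the shares were 58.2%, 68.3% and 92.5%. CDKN1A had a UMI in 89.2% of very high cells (86.9 to 91.3), against 75.2% of the comparison band (72.8 to 77.4) and 37.4% of non-irradiated cells, and without thinning in 98.9%, 94.0% and 66.3%. Cells with both CDKN1A and a mitotic gene made up 24.7% of very high cells (21.8 to 27.8), 25.7% of the comparison band (23.4 to 28.1) and 28.2% of non-irradiated cells. The counting intervals of very high cells overlapped those of both other groups.

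When only cells with no UMI of MKI67 or TOP2A were compared, an alternative added after the data were seen, the marker genes came closer to even while MALAT1 and the mitochondrial share did not. This left 361 very high cells and 438 comparison cells. They were shallower than the full groups, with medians of 9041 and 10000 UMIs, against 11080.5 and 12472. A shallow cell can lack these UMIs by depth alone, and the part of depth was not tested. MALAT1 had a ratio of 0.306 (0.300 to 0.312) and NEAT1 of 0.552, and the median mitochondrial share was 2.58% in very high cells and 6.50% in the comparison band. FTH1 was 31918 CPM in very high cells and 21272 CPM in the comparison band, and KLK8 had a ratio of 1.48 and LINC01405 of 1.79. CDKN1A had a ratio of 1.05 (1.01 to 1.10), CST3 of 1.18 (1.13 to 1.23) and SNCG of 0.994 (0.903 to 1.09). CENPF and CCNB1 had ratios of 1.03 and 0.943. These are mitotic genes too, so their ratios are set in part by the choice of cells.

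Mitochondrially encoded subunits were lower as a list: 11 of 13 passed the limit and 0 were higher, with a median log2 ratio of -0.75, beside 12.4% lower over all genes. At 30000 tag8 counts or more 13 of 13 were lower, with a median of -2.55, beside 42.1% lower and a median of -0.47 over all genes. MT-ND6, the only subunit read from the light strand, fell to 171 CPM in very high cells, against 451 CPM in the comparison band (ratio 0.378). MT-ATP8, which overlaps MT-ATP6 in the genome so that their reads are partly shared, fell to 44.4 CPM against 131 CPM (ratio 0.340). MT-CO2 and MT-ND4L, with ratios of 0.708 and 0.744, did not reach the limit. The nuclear genes for the same respiratory chain went the other way: 0 of 35 passed the limit, with a median log2 ratio of 0.25, and at 30000 tag8 counts or more 18 of 35 were higher with a median of 0.59, beside 5.24% higher over all genes. UQCRQ, a subunit of complex III, was 1391 CPM in very high cells and 934 CPM in the comparison band (ratio 1.49), and 2.42 times the comparison band at 30000 tag8 counts or more.

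**Figure D5:**
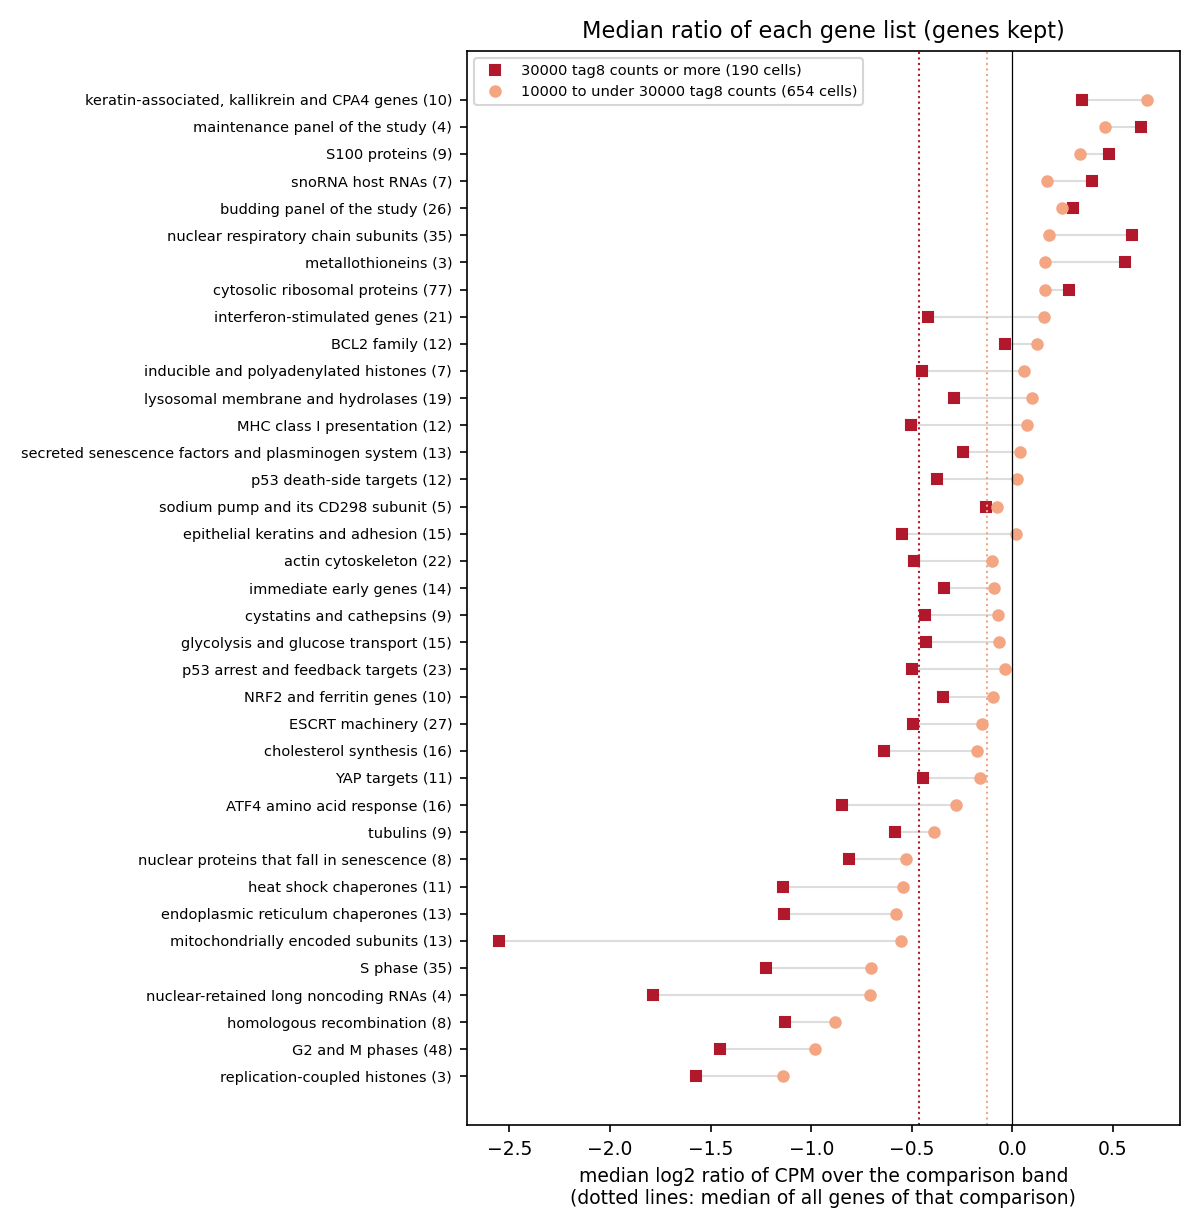
Median log2 ratio of CPM over the comparison band for each list with at least 3 genes kept (number in brackets), squares for the 190 cells with 30000 tag8 counts or more and circles for the 654 cells with 10000 to under 30000; dotted lines give the median of all genes in each (-0.47 and -0.13). The mitochondrially encoded subunits lie at -2.55 and -0.55, the furthest apart.

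Chaperones fell as a group. Of the endoplasmic reticulum chaperones 8 of 13 were lower and 0 higher, with a median log2 ratio of -0.65, beside 12.4% lower over all genes. At 30000 tag8 counts or more, where 42.1% of all genes were lower with a median of -0.47, the median of this list was -1.13. HSPA5, the main chaperone of that compartment, fell to 125 CPM in very high cells, against 232 CPM in the comparison band (ratio 0.538), and HSP90B1 fell to 412 against 728 CPM. Of the heat shock chaperones 6 of 11 were lower and 0 higher, beside the same 12.4%, with a median of -0.65. HSPD1, which folds proteins in mitochondria, fell to 898 CPM in very high cells, against 1527 CPM in the comparison band, and HSP90AB1, a cytosolic chaperone, to 1996 against 3308 CPM. HSPA1B fell to 42.9 against 75.7 CPM, but it is nearly identical to HSPA1A and their reads may be split.

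Nuclear proteins that are known to fall in senescence and tubulins were also lower in part. Of the nuclear proteins 4 of 8 were lower and 0 higher, with a median log2 ratio of -0.56, beside 12.4% lower over all genes: HMGB2, a chromatin protein, fell to 95.2 CPM in very high cells, against 206 CPM in the comparison band, HMGB1 to 929 against 1534 CPM, and LMNB1, lamin B1, to 11.6 against 21.9 CPM. Of the tubulins 3 of 9 were lower, beside the same 12.4%, with TUBA1B at 626 CPM in very high cells and 1085 CPM in the comparison band. Among the 15 lowest genes by the naming rule were PNN, HNRNPR and SFPQ, proteins of RNA splicing, with ratios of 0.479, 0.479 and 0.483, SMC1A, a cohesin subunit, and GABPB1-AS1, an antisense RNA. In cells without a UMI of MKI67 or TOP2A, LMNB1 had a ratio of 1.64 and the nuclear protein list a median of 0.19, so this list turned direction there.

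The p53 targets did not move as a group. Of the arrest and feedback targets 0 of 23 passed the limit in either direction, with a median log2 ratio of -0.16, beside -0.18 for all genes, and of the death-side targets 0 of 12 passed. MDM2, the ubiquitin ligase that holds p53 in check, was 48.6 CPM in very high cells and 66.6 CPM in the comparison band (ratio 0.730), and GDF15, a stress cytokine, was 928 against 1046 CPM. RPS27L, a p53 target, was 1329 CPM in very high cells and 1010 CPM in the comparison band (ratio 1.32). At 30000 tag8 counts or more 10 of 23 arrest targets were lower and 1 was higher, with a median of -0.50, beside 42.1% lower, 5.24% higher and a median of -0.47 for all genes. Against non-irradiated cells the median of the arrest targets in very high cells was 0.77.

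Interferon-stimulated genes held close to the comparison band. Of 21 measured genes 1 was higher (IFIT3, at 14.9 CPM in very high cells and 9.66 CPM in the comparison band) and 2 were lower (IFIT5 and OAS3), with a median log2 ratio of 0.14, beside 1.11% higher and 12.4% lower over all genes. ISG15, a ubiquitin-like effector, was 1153 CPM in very high cells and 1027 CPM in the comparison band, and 815 CPM at 30000 tag8 counts or more. For MHC class I presentation 2 of 12 were lower, CALR and PDIA3, which are also chaperones, and 0 were higher, a count near what 12.4% of 12 genes gives. B2M, the light chain of MHC class I, was 823 CPM in very high cells and 689 CPM in the comparison band (ratio 1.19), and ATP1B3, a sodium pump subunit, was 149 against 158 CPM (ratio 0.943, 0.885 to 1.01). These encode the usual targets of human hashtag antibodies, but the target of tag8 is not given in the sources used here.

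Other lists had at most 4 genes past the limit, though some of their medians lay above the -0.18 of all genes. Of the S100 proteins, small calcium binders, 0 of 9 passed the limit, with a median log2 ratio of 0.36. S100A6 was 10992 CPM in very high cells and 8097 CPM in the comparison band. At 30000 tag8 counts or more 4 of 9 were higher, with a median of 0.48, beside 5.24% higher and a median of -0.47 over all genes. Of the cytosolic ribosomal proteins, a list added later, 1 of 77 was higher (RPL12, ratio 1.52), close to the 1.11% of all genes. RPS28 had a ratio of 1.40 and the median log2 ratio was 0.19. At 30000 tag8 counts or more 18 of the 77 were higher and 4 lower, with a median of 0.28. Over all genes there 5.24% were higher and 42.1% lower. Of the ATF4 amino acid response 2 of 16 were lower, a share near the 12.4% of all genes, with PHGDH, which starts serine synthesis, at 15.2 CPM in very high cells and 28.2 CPM in the comparison band. Of cholesterol synthesis 4 of 16 were lower and 0 higher, beside the same 12.4%, and of the ESCRT machinery, which cuts membranes, 0 of 27 passed.

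Within bands of like UMIs per cell MALAT1, FTH1 and CST3 kept their direction, while the size of the MALAT1 ratio moved and SNCG, GDF15, ISG15 and KRTAP3-1 did not keep theirs. MALAT1 had ratios of 0.131, 0.255, 0.316 and 0.481 in cells under 3000 UMIs (only 18 very high and 11 comparison cells), from 3000 to under 10000, from 10000 to under 20000 and from 20000 up. FTH1 had ratios of 1.40, 1.83, 1.85 and 1.68 in the same bands, and those of CST3 lay between 1.40 and 1.68. Median mitochondrial shares were 2.24% in 337 very high cells and 6.60% in 423 comparison cells from 3000 to under 10000 UMIs, and 4.13% and 6.44% in 425 and 840 cells from 10000 to under 20000. SNCG had ratios of 0.959 (0.849 to 1.08) from 3000 to under 10000 UMIs, 1.39 from 10000 to under 20000 and 1.03 from 20000 up, and KRTAP3-1 had 0.988 (0.762 to 1.28) from 20000 up. The ratios of GDF15 and ISG15 were 0.656 and 0.824 from 3000 to under 10000 UMIs and 1.01 and 1.22 in the next band.

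Some very high cells carried counts of a further hashtag. Of the very high cells 275 (32.6%, 29.4 to 35.9) had 200 or more counts of tag6 or tag7 beside tag8, against 118 of the comparison band (8.60%, 7.17 to 10.2), and of the 190 cells with most tag8 it was 92. These shares are set in part by the choice of cells: tag8 had to make up 80% of the tag counts, which let another tag reach 2500 counts at the lower limit of the very high group but 790 counts at that of the comparison band. Without the 80% limit the shares were 34.7% of 871 very high cells and 16.4% of 1500 comparison cells. With it, 5.09% of very high cells (3.71 to 6.80) and 3.94% of comparison cells (2.97 to 5.10) had from 200 to under 790 counts of their larger other tag. That range was open to every cell of both groups, and these intervals overlapped. At 790 counts or more the shares were 27.5% of very high cells (24.5 to 30.6) and 4.66% of comparison cells (3.61 to 5.92). The 80% limit capped this upper range lower in comparison cells, and how far it shaped the difference was not tested. The 275 very high cells had less CDKN1A, 798 CPM against 1202 CPM in the other very high cells, and more MKI67, 81.7 against 50.4 CPM. The low nuclear and mitochondrial RNA was present in both: median MALAT1 was 1366 CPM and the median mitochondrial share 2.99% in the 275 cells, against 1541 CPM and 3.70% in the other 569. A droplet with 2 cells could not be told apart from 1 cell with stray tag, and no doublet caller was run.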

How the data were processed

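Mix2 was made with the 3' kit (v3.1) of 10x Genomics and sequenced on a NextSeq 500. The deposited values were whole UMI counts per gene and barcode, not normalized, which the authors had obtained from Cell Ranger (3.0.1 for Mix2, 3.1.0 for Mix1, per the file headers). The submitters' notes name GRCh38, mm10 and Seurat 2.3; other settings, among them strand use, are not given in the sources used here. Mix1 was used only to count shared barcodes, and an unfiltered matrix of Mix2 only for droplets without cells.

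Cells had at least 200 genes, under 10% mitochondrial UMIs and tag8 at 80% or more of the tag counts. UMIs were summed per group and scaled to CPM. Genes with a mean of at least 10 CPM were kept and called at a ratio of 1.5. With 1 library no test was made. Intervals are exact at 95% and cover counting error or the sampling of cells only. The method was tested on simulated counts. Depth ranged from 1064 to 37217 UMIs per very high cell. Fixed-depth shares used cells thinned to 3000 UMIs. No doublet caller was run.

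Named genes were CST3, CDKN1A and SNCG, the genes with the 15 highest and 15 lowest ratios at a mean of 50 CPM or more, in each list as many as 4 members of largest absolute log2 ratio, ATP1B3 and B2M; genes named outside this rule, such as GDF15, ISG15, FTL, SLPI and further list members, were chosen after their values were seen. The members and the 40 gene lists were chosen with earlier results of these data known. Positions are from GENCODE 44. Alternatives changed the tag limits, cell filter, depth, scaling (TMM of edgeR 4.0.16 in R 4.3.3), background and gene filter; 3 more were chosen after the data were seen. Other steps used Python 3.11.15 with numpy 2.4.6, scipy 1.17.1 and pandas 2.3.3.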

Additional observations from a re-analysis of the deposited data

Results flagged for a closer look

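Droplets without cells held transcripts of erythroid and immune marker genes that were near 0 in the very high cells. These were 20682 droplets of 10 to 100 UMIs, taken from the unfiltered matrix of Mix2. Their profile was used in an alternative setting that subtracts background, and not in the main comparison. The summed erythroid markers stood at 37568 CPM in them, against 1.44 CPM in very high cells, 1.61 CPM in the comparison band and 2.77 CPM in non-irradiated cells. The summed immune cell markers stood at 2153 CPM in these droplets, against 0.617 CPM in very high cells and 0.517 CPM in the comparison band. Their 345027 UMIs held 3.04% MALAT1, against 0.391% in very high cells and 1.19% in the comparison band. Where the erythroid and immune transcripts came from could not be settled from the files and was not tested.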

How the results depend on the processing

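The 80 higher genes became 266 with very high cells at 20000 tag8 counts or more, 722 against cells of 1000 to under 3160 tag8 counts, 122 with tag8 at 95% of tag counts, 173 after thinning to 3000 UMIs, 246 with TMM factors, 142 with CPM without mitochondrial and ribosomal protein genes, 371 with a mean of at least 1 CPM, 29 with 50 CPM and 5 at 2-fold. The 888 lower genes became 2220, 1814, 1410 after thinning, 378 with TMM factors, 1904 with 1 CPM, 223 with 50 CPM, 104 at 2-fold and 569 without cells of 30000 counts or more; the cause was not tested except where fewer or more genes or cells entered. The ratio of median UMIs (0.888) became 0.663 at 20000 counts, 0.951 with no mitochondrial limit, and turned to 1.41 against cells of 1000 counts and 1.00149 after reweighting by UMIs, which makes depth equal by construction. The ratio of median genes (0.874) became 0.690 at 20000 counts, 0.918 with the boundary at 7500 counts, 0.920 with tag6 and tag7 under 200, 0.914 thinned, 0.927 reweighted and 0.922 without cells of 30000 counts, and turned to 1.11 against cells of 1000 counts. The difference in median mitochondrial share (-3.01 points) became -5.08 at 20000 counts, -3.54 with no limit, -1.73 under 5%, -3.92 in cells without MKI67 or TOP2A UMIs and -2.33 without cells of 30000 counts.

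Of 84 named genes past 1.5-fold, 10 turned direction in 1 of 18 settings. KRTAP3-1 went to a ratio of 0.886 under 5% mitochondrial UMIs. In cells without a UMI of MKI67 or TOP2A, KIF2C went to 1.09, DTL 1.58, CENPF 1.03, LMNB1 1.64, HIST1H1E 1.34, ANLN 1.04, TEAD1 1.12, H2AFX 1.31 and BLM 2.68, and the list medians of nuclear proteins that fall in senescence to 0.19 and of replication-coupled histones to 0.42. With TMM factors the glycolysis median went to 0.021. Subtracting 10% of UMIs as droplets without cells moved the MALAT1 ratio to 0.0979, but that profile holds erythroid RNA that is near 0 in the cells. No paired analysis was possible because Mix2 is 1 library. Single-library depth limits all values to these cells.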

Other observations

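Long noncoding RNAs as a class ran higher in very high cells than protein-coding genes did. Of 129 measured long noncoding RNAs 27 were higher and 9 lower than in the comparison band, with a median log2 ratio of 0.27, whereas of 7047 protein-coding genes 53 were higher and 878 lower, with a median of -0.19. MALAT1, NEAT1 and KCNQ1OT1 were thus exceptions within their class.

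Short transcripts ran higher than long ones. Spliced length was matched for 7178 of 7184 genes (99.9%), and Spearman's rho of length with the log2 ratio was -0.32 across genes, which share libraries and are not independent. In the 1441 shortest genes (207 to 1542 bases) the median log2 ratio was 0.04, and in the 1436 longest (5497 to 34626 bases) it was -0.31. The shortest were also more abundant, with a median level of 81.3 CPM against 22.7 CPM in the longest. Spearman's rho of level with the log2 ratio was 0.18, and the parts of length and level were not tested apart. In the 190 cells with 30000 tag8 counts or more the median log2 ratios of the shortest and longest genes were 0.02 and -0.79. Among protein-coding genes without ribosomal protein, mitochondrially encoded, respiratory chain and cell cycle genes, the median log2 ratios over very high cells were 0.02 in the 1367 shortest and -0.31 in the 1367 longest.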
